A study of Mus musculus with 12 samples.

Results

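The axon guidance genes of a murine melanoma cell line were compared between cells that lacked an enzyme of prostaglandin E2 synthesis and control cells. The set was taken by gene name and comprised the semaphorins of classes 3 to 7, the plexins, the neuropilins, the ephrins of both classes and their Eph receptors, the slits and Robo receptors, the netrins, and the Unc5 and Dcc receptors. It held 71 of the 30705 genes in the table. A mean over the 12 samples of at least 1 RPKM (a read count scaled to transcript length and to the mapped reads of the library) was reached by 35 of the 71, and the remaining 36 lay below that level. The name rule also took in Unc50 and Unc5cl, which share a name with the netrin receptors but are not known as guidance genes, and they are counted apart from the 35 ligands and the 34 receptors.

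RNA-seq was run on 4 groups of 3 samples of BrafV600E melanoma cells, which the study describes both as different subclones and as independent samples of a line. The parental line came from a C57BL/6 mouse of genotype Braf+/LSL-V600E;Tyr::CreERT2+/o;p16INK4a-/-, in which a tyrosinase-driven, tamoxifen-inducible Cre recombinase switches on the mutant Braf allele, so that all groups share the V600E allele and the loss of p16INK4a. The control group received a scramble guide, and the other groups carried CRISPR/CAS9 knockouts of ptgs1, ptgs2 or ptges, which encode COX-1, COX-2 and mPGES-1, respectively. Knockout cells were selected with puromycin and subcloned by limiting dilution. Whether the spread between samples is that between subclones or between cultures of a line is therefore not settled, and a difference between lines that the knockout did not cause cannot be told apart from 1 that it did.

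Guidance cues were first described as the signals that steer growing nerve fibres, and the same ligands and receptors act on endothelial cells, immune cells and tumor cells. Semaphorins signal through plexins, and most secreted class 3 semaphorins need a neuropilin as the ligand-binding partner of the plexin. Slits bind Robo receptors, netrins bind Dcc, neogenin and Unc5 receptors, and ephrins, which stay attached to the cell surface, bind Eph receptor tyrosine kinases on neighbouring cells and can signal in both directions. COX-1 and COX-2 convert arachidonic acid to prostaglandin H2, from which mPGES-1 makes prostaglandin E2.

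The targeted genes were checked first. Ptgs1 mRNA was 16 ± 1.49 RPKM (mean ± SD, n = 3 in every group) in ptgs1-KO cells against 151 ± 11.5 in scramble cells, and Ptgs2 mRNA was 79.8 ± 4.38 in ptgs2-KO cells against 761 ± 14.2. In ptgs1-KO cells Ptgs2 mRNA was 598 ± 86.4 RPKM, with all samples below those of scramble. It was called lower there by the limma test described below (log2 fold change -0.36, adjusted p = 0.0386). Ptges mRNA was 37.1 ± 3.37 RPKM in ptges-KO cells, 77.6 ± 2.43 in scramble cells and 54.5 ± 2.76 in ptgs1-KO cells. By the same limma test it was called lower in ptgs1-KO cells than in scramble (log2 fold change -0.50, adjusted p = 0.0011). The ptgs1-KO line thus also had less mRNA of both other targeted genes. Of 10 genes that mark the melanocyte lineage, 5 were at 0 in all 12 samples, namely Sox10, Dct, Tyrp1, Mlana and Kit. Group means of Pax3 were 5.24 to 7.31 and those of Mitf 1.75 to 2.68 RPKM. The remaining genes, Tyr, Ednrb and Pmel, averaged under 1 RPKM. Summed markers of endothelial cells did not exceed 0.44 RPKM and those of leukocytes 0.14 RPKM in any sample. The fibroblast genes Dcn and Lum were at 0 throughout, with Pdgfra at group means of 3.77 to 10.4 RPKM. Col1a1 and Col1a2 averaged under 1 RPKM. Summed markers of neurons and Schwann cells were at 1.49 to 2.58 RPKM. The steps between low values correspond to an estimated 13540000 to 17420000 counted reads per sample. In bulk RNA, fewer cells that express a gene and less of its RNA per cell cannot be told apart.

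Unc5b and Sema7a moved in opposite directions in different knockouts, and their promoter windows are shown so that the sequence before each start can be read beside its changes. Each runs from 250 bases before to 50 bases after the start, 5′ to 3′ on the strand of the gene, from RefSeq on GRCm38.p6, and capitals mark the bases TGACG, the core of the cAMP response element TGACGTCA, on either strand. The Unc5b window is chr10:60831532-60831831 on the minus strand and that of Sema7a chr9:57939862-57940161 on the plus strand. The windows of Slit3 and Sema3c are not shown, since their RefSeq starts lay 232 and 535 bases inside the GENCODE gene.
Unc5b: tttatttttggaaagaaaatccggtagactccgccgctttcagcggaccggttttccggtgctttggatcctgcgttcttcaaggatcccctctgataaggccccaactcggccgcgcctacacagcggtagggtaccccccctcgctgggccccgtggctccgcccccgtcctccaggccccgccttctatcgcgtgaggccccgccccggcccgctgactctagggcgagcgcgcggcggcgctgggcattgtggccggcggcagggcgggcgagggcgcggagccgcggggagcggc
Sema7a: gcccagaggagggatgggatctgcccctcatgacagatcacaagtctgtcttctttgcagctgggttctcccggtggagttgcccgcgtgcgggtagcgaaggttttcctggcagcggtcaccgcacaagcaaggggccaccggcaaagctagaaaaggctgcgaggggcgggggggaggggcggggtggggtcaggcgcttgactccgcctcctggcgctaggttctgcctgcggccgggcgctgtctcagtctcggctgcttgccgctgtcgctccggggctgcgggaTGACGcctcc

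The G and C content of these windows was 69.7% for Unc5b and 67.3% for Sema7a, beside a median of 52.7% over the 32851 promoter windows of the same length in the table. TGACG occurred in the Sema7a window, 40 bases after the gene start, and not in that of Unc5b. Of the 35 members at 1 RPKM or more, 29 had a window at a RefSeq start (36 windows in all), and 16.7% of these windows held TGACG, as did 20.8% of all windows. The full TGACGTCA occurred in the window of Epha2 alone among these members and in 1.79% of all windows. These letters describe the windows and not binding at them.

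Mean levels of at least 100 RPKM were reached by 4 receptors, Epha2 (516), Plxnb2 (407), Nrp2 (123) and Plxna1 (104), and 21 genes lay at or above 10 RPKM. Of the 34 receptors, 13 had a mean of at least 1 RPKM, as had 21 of the 35 ligands. Expression within a family was concentrated in few genes: Epha2 made up 99.8% of the summed EphA level, Unc5b 99.2% of the Unc5 and Dcc level and Nrp2 96.9% of the neuropilin level over the 12 samples. The 4 Robo receptors, which bind slits, summed to group means of 0.0167 to 0.157 RPKM, although Slit3 and Slit2, their ligands, were at 85.9 and 54.1 RPKM. Plxnc1, the receptor of Sema7a, and Dcc likewise had group means under 0.03 RPKM, while Sema7a itself had a mean of 51.8 RPKM.

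**Figure D1:**
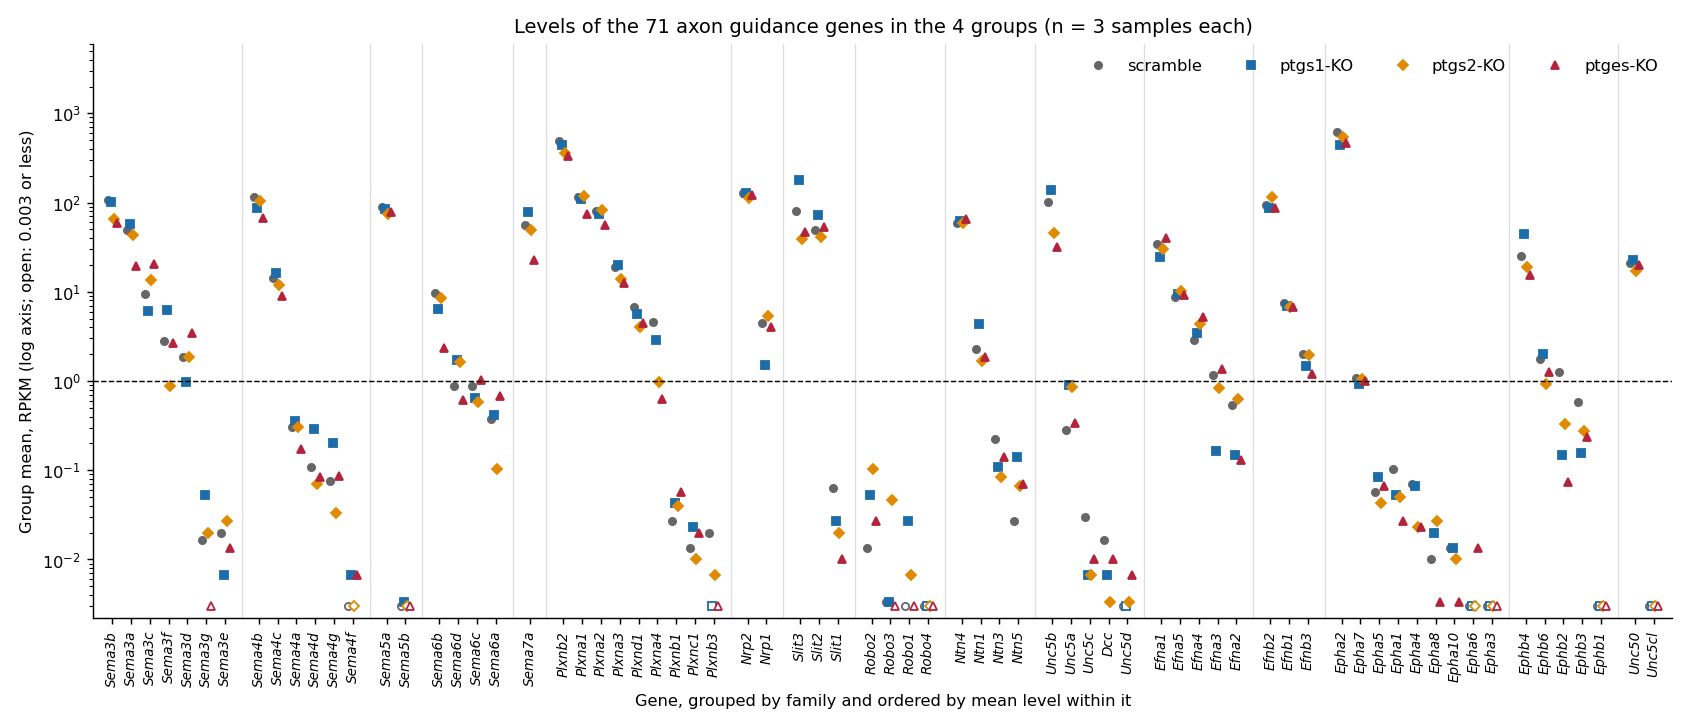
Group mean level (RPKM, log axis) of each of the 71 genes, 4 symbols per gene for the 4 groups of 3 samples, ordered by family, with a dashed line at 1 RPKM and open symbols for means of 0.003 RPKM or less. Epha2 and Plxnb2 have the highest levels, and all 4 Robo receptors lie below the line in every group.

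Adjusted p values below are from limma on log2(RPKM + 1), with Benjamini-Hochberg adjustment over all 11282 genes that averaged 1 RPKM or more, and a gene was called changed at an adjusted p under 0.05. Fold changes on this scale understate the change of low genes. Over the 4 groups together, 29 of the 35 members differed (82.9%), compared with 38.6% of all genes tested. The 35 include Unc50 here and below. Those that differed were 17 of the 21 ligands, 11 of the 13 receptors and Unc50 (adjusted p = 0.0458 in the moderated F test of limma). In ptgs1-KO cells, 15 members were called against scramble (42.9%, against 9.26% of all genes), 7 of them higher and 8 lower, beside 4.65% and 4.61% of all genes in these directions. In ptgs2-KO cells, 10 were called (28.6%, against 11.1% of all genes), 2 of them higher and 8 lower, beside 5.97% and 5.17% of all genes. In ptges-KO cells, 20 were called (57.1%, against 26.3% of all genes), 3 of them higher and 17 lower, beside 11.9% and 14.4% of all genes. The lower calls of the ptges-KO cells included 9 of the 13 receptors and no receptor was called higher there. A called change of at least 1 on the log2 scale was seen for 2, 4 and 6 members without COX-1, COX-2 and mPGES-1, respectively, beside 1.24%, 0.984% and 1.94% of all genes, and 1 of at least 0.5 for 10, 7 and 17 members, beside 5%, 4.73% and 10.9% of all genes. Without scramble sample 2 the ptgs1-KO count was 9, and without scramble sample 1 the ptgs2-KO count was 6. Under Tukey's test on untransformed RPKM, with its p values adjusted further over genes, 4, 5 and 12 members were called in the 3 knockouts. Tukey's p values without this further adjustment are not given here. The 3 comparisons share the scramble samples, so their calls are not independent of each other.

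The median log2 fold change of the 35 members was -0.06 in ptgs1-KO, -0.20 in ptgs2-KO and -0.28 in ptges-KO cells, beside 0.01, 0.01 and -0.03 over all genes tested. The median size of the change, without its sign, was 0.24, 0.26 and 0.50, beside 0.14, 0.15 and 0.19 over all genes. All samples of a knockout lay outside the range of the scramble samples for 19, 22 and 22 members, that is 54.3%, 62.9% and 62.9%, while 26.9%, 35.1% and 43.3% of all genes did so. Between ptges-KO and ptgs2-KO cells, 15 members were called (42.9%, against 16.6% of all genes), 4 of them higher and 11 lower in the former, beside 6.76% and 9.84% of all genes. Of these, 11 changed by at least 0.5 and 3 by at least 1 on the log2 scale, beside 7.88% and 1.73% of all genes, and 21 members did not overlap between these lines (60%, against 34% of all genes). Of the 35, 6 had a group mean under 1 RPKM in at least 1 group (Sema3d, Sema3f, Sema6d, Plxna4, Epha7 and Ephb6), and these passed the filter through the groups in which they were higher.

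**Figure D2:**
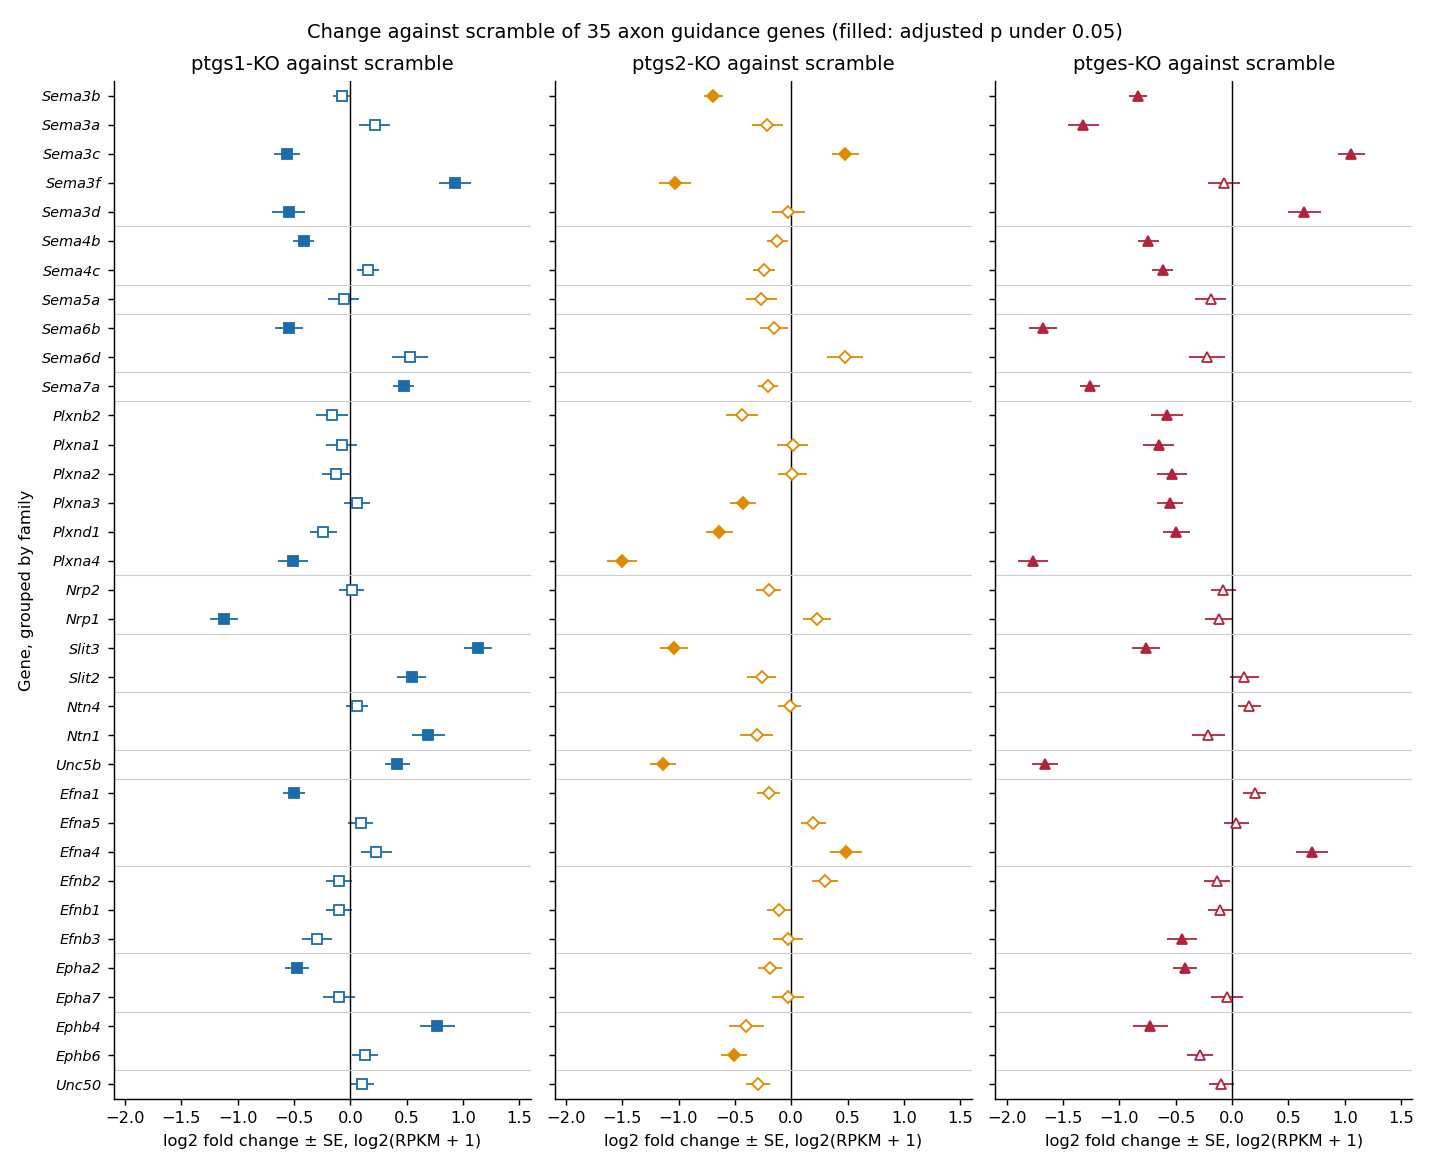
Log2 fold change against scramble (horizontal axis, log2(RPKM + 1), bars ± SE, n = 3 samples per group) of the 35 genes that averaged 1 RPKM or more, 1 panel per knockout, filled symbols for an adjusted p under 0.05. All 6 plexins are filled and left of 0 in the ptges-KO panel, and Slit3 and Unc5b lie right of 0 in the ptgs1-KO panel and left of 0 in both others.

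The called members fell into several patterns. Called in all 3 knockouts were 4 members, Slit3, Unc5b, Sema3c and Plxna4, as were 1.92% of all genes. Of these, only Slit3 kept its calls in every knockout when single libraries were left out. The ptgs1-KO calls of Unc5b and Plxna4 and the ptgs2-KO call of Sema3c did not. A further 11 members were called in 2 of the knockouts, 11 in 1 and 9 in none. In opposite directions in different knockouts, with the direct contrast between those knockouts also called, were Slit3, Unc5b, Sema7a, Ephb4, Sema3c, Sema3d and Sema3f, that is 7 of 35 members, beside 3.11% of all genes. Under Tukey's test with the further adjustment over genes, none of the 7 was called in both directions. It did not call the ptgs1-KO change of Unc5b, Sema7a, Ephb4, Sema3c and Sema3d. Also not called were the ptgs2-KO change of Slit3, Sema3c and Sema3f and the ptges-KO change of Slit3 and Ephb4. What Tukey's test of single genes alone would call is not given here. The direct contrasts of ptgs2-KO and of ptges-KO with ptgs1-KO cells called 23.6% and 30.2% of all genes.

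Slit3 and Slit2 are large secreted ligands of Robo receptors, and both were highest in ptgs1-KO cells. Slit3, at chr11:35121224-35708507 on GRCm38, was at 73.8, 84.2 and 82.9 RPKM in scramble samples 1 to 3 and at 198, 174 and 162 in ptgs1-KO samples. It was at 43.6, 39.0 and 33.3 RPKM in ptgs2-KO samples and at 56.2, 43.3 and 41.8 in ptges-KO samples. Every ptgs1-KO sample thus lay above, and every ptgs2-KO and ptges-KO sample below, the scramble samples, while the last 2 groups overlapped. The log2 fold change against scramble was 1.13 ± 0.12 (SE) in ptgs1-KO (adjusted p = 5.85e-05), -1.04 ± 0.12 in ptgs2-KO (adjusted p = 0.000159) and -0.77 ± 0.12 in ptges-KO cells (adjusted p = 0.000761). In RPKM, the ptgs2-KO mean was 21.8% of the ptgs1-KO mean.

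Slit2 was at 46.5 to 50.8 RPKM in scramble and at 78.1, 77.0 and 62.7 RPKM in ptgs1-KO samples, which did not overlap. On the log2 scale it changed in that line by 0.54 ± 0.13 (adjusted p = 0.0171). This call ended without ptgs1-KO sample 1, ptgs1-KO sample 2 or scramble sample 1 (adjusted p = 0.0641 to 0.0727). In ptgs2-KO and ptges-KO cells Slit2 was not called, at -0.26 ± 0.13 and 0.11 ± 0.13, and its samples overlapped those of scramble. The share of Slit3 in the summed slit level was 61.9 ± 0.58% in scramble, 71 ± 1.49% in ptgs1-KO, 48.5 ± 0.62% in ptgs2-KO and 46.8 ± 0.41% in ptges-KO cells. Slit2 thus exceeded Slit3 on average in ptgs2-KO and ptges-KO cells and not in the other lines.

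Unc5b, a netrin receptor with a death domain, was the only Unc5 or Dcc receptor with a mean above 1 RPKM. It was at 95.5, 105 and 104 RPKM in scramble samples, at 153, 136 and 121 in ptgs1-KO, at 51.8, 46.7 and 39.5 in ptgs2-KO and at 35.8, 28.6 and 30.2 in ptges-KO samples. None of the 4 groups overlapped any other. Its level fell by 1.66 ± 0.12 on the log2 scale in ptges-KO (adjusted p = 5.33e-07) and by 1.14 ± 0.12 in ptgs2-KO cells (adjusted p = 3.31e-05). In ptges-KO cells it was also lower than in ptgs2-KO cells, at -0.53 ± 0.12 (adjusted p = 0.00724). Under Tukey's test on RPKM, further adjusted over genes, Unc5b was not called between ptges-KO and ptgs2-KO cells (adjusted p = 0.814). In ptgs1-KO cells it was higher by 0.42 ± 0.12 (adjusted p = 0.0375), a call that ended without any 1 of 7 libraries, namely ptgs1-KO samples 1 and 2, ptgs2-KO sample 2, ptges-KO sample 3 and the 3 scramble samples (adjusted p = 0.0503 to 0.142).

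Of the netrins, Ntn4, a laminin-binding member, was at group means of 58.7 to 66.1 RPKM and was called in none of the comparisons. Ntn1, the ligand of Unc5b and Dcc, was at 1.91, 2.29 and 2.69 RPKM in scramble and at 5.06, 4.46 and 3.51 in ptgs1-KO samples, which lay above all others of its samples. Ntn1 rose by 0.69 ± 0.15 on the log2 scale in ptgs1-KO cells (adjusted p = 0.00859) and was not called in ptgs2-KO (-0.30 ± 0.15) or ptges-KO cells (-0.21 ± 0.15). Ligand and receptor were therefore both highest in ptgs1-KO cells. Dcc, Unc5c and Unc5d stayed at group means of 0.03 RPKM or less.

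**Figure D3:**
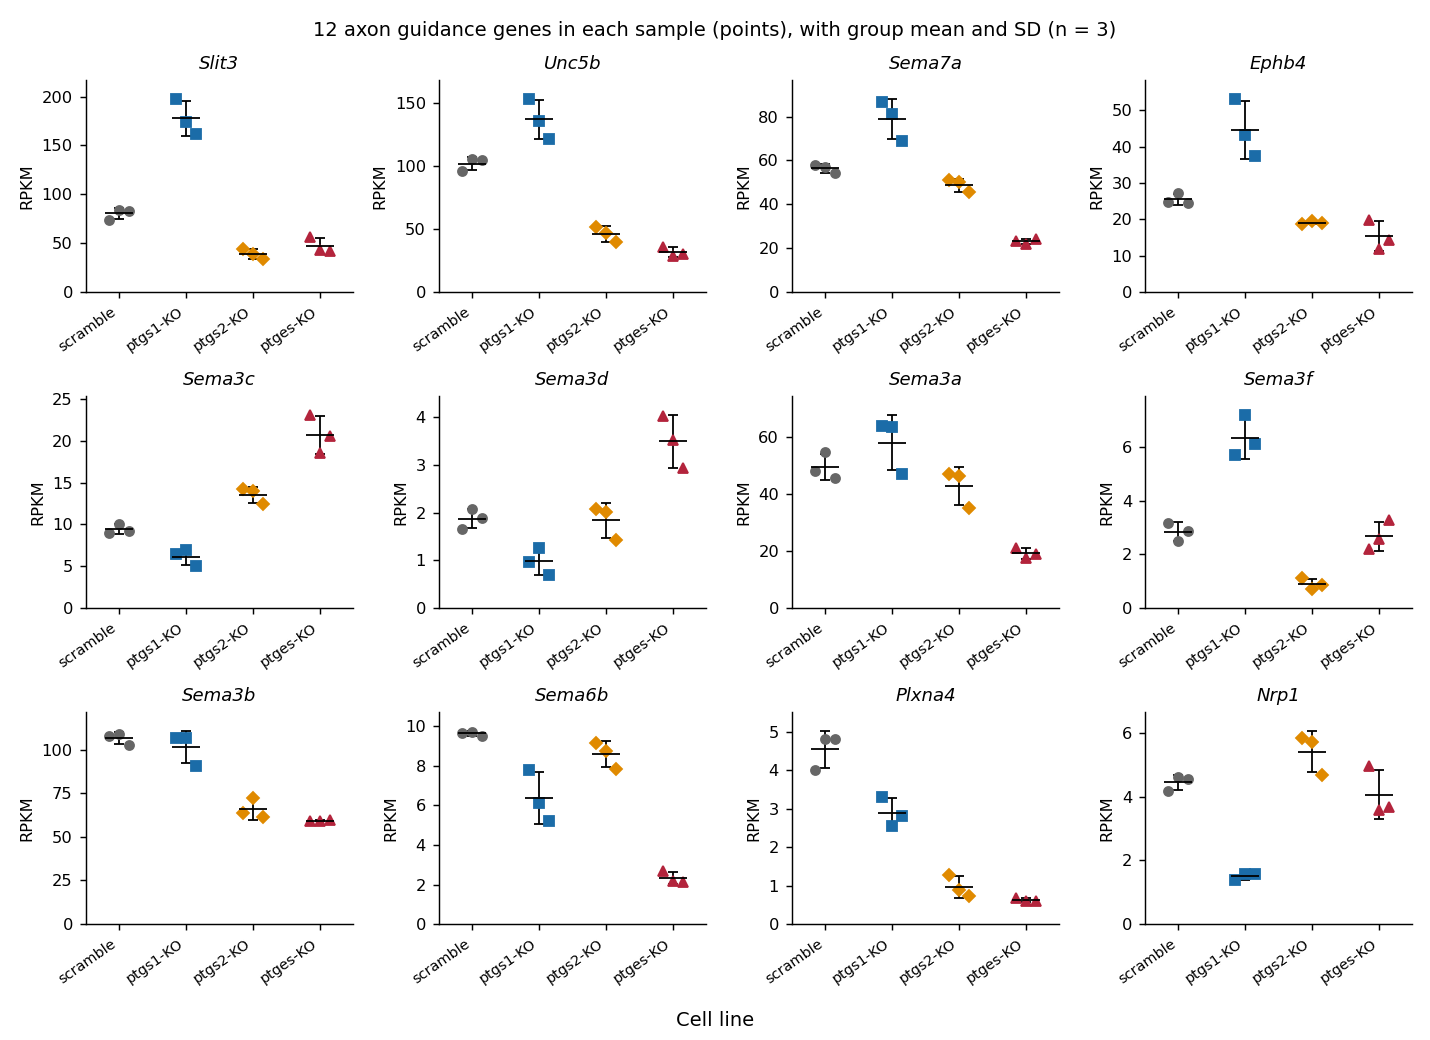
Level in each sample (points, RPKM, vertical axis from 0) of 12 of the called genes in the 4 lines, with horizontal bars for the mean and whiskers for the SD (n = 3). Slit3, Unc5b, Sema7a and Ephb4 are highest in the ptgs1-KO samples, Sema3c and Sema3d are highest in the ptges-KO samples, and Nrp1 is lowest in the ptgs1-KO samples.

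Class 3 semaphorins are secreted ligands of neuropilin and plexin complexes, and 5 of the 7 had a mean of at least 1 RPKM. Sema3b and Sema3a, which are best known as repulsive or growth-restraining cues, had the highest levels and were lowest in ptges-KO cells. Sema3a was at 48.1, 54.8 and 45.8 RPKM in scramble and at 21.2, 17.5 and 19.0 in ptges-KO samples, and no ptges-KO sample reached the lowest sample of any other line. It fell by 1.32 ± 0.14 on the log2 scale against scramble (adjusted p = 2.18e-05) and by 1.11 ± 0.14 against ptgs2-KO cells (adjusted p = 0.0001). Sema3b was at 103 to 109 RPKM in scramble, at 61.2 to 72.4 in ptgs2-KO and at 59.0 to 59.7 in ptges-KO samples. It was lower in ptgs2-KO (-0.69 ± 0.08, adjusted p = 0.000148) and in ptges-KO cells (-0.83 ± 0.08, adjusted p = 1.36e-05), and in ptgs1-KO cells the samples overlapped those of scramble (-0.07 ± 0.08).

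Sema3c, known to promote the growth and migration of several tumor and endothelial cell types, moved the opposite way to Slit3. It was at 8.95, 10.1 and 9.24 RPKM in scramble samples, at 6.45, 6.89 and 4.97 in ptgs1-KO, at 14.2, 14.0 and 12.5 in ptgs2-KO and at 23.1, 18.5 and 20.6 in ptges-KO samples. None of these groups overlapped. Sema3c rose by 1.06 ± 0.12 in ptges-KO (adjusted p = 3.90e-05) and by 0.48 ± 0.12 in ptgs2-KO cells (adjusted p = 0.0195), fell by 0.56 ± 0.12 in ptgs1-KO cells (adjusted p = 0.00883) and was higher without mPGES-1 than without COX-2 (0.58 ± 0.12, adjusted p = 0.00507), all on the log2 scale. The ptgs2-KO call ended without ptgs2-KO sample 1 or 2 or scramble sample 1 or 3 (adjusted p = 0.0612 to 0.0773).

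Sema3d, another secreted class 3 ligand, was lower in level, with 1.66, 2.07 and 1.89 RPKM in scramble, 0.970, 1.26 and 0.70 in ptgs1-KO, 2.08, 2.01 and 1.42 in ptgs2-KO and 4.03, 3.52 and 2.93 in ptges-KO samples. All ptges-KO samples lay above, and all ptgs1-KO samples below, those of scramble, while the ptgs2-KO samples overlapped scramble. Sema3d was higher in ptges-KO cells by 0.64 ± 0.15 (adjusted p = 0.00680) and lower in ptgs1-KO cells by -0.55 ± 0.15 (adjusted p = 0.0346), and the second call ended without any 1 of 6 libraries, namely ptgs1-KO samples 1 and 3, ptges-KO sample 2 and the 3 scramble samples (adjusted p = 0.0536 to 0.114). Sema3d, Sema3a and Sema3c all lie on chromosome 5 of GRCm38, at 12383385-12588948, 13125414-13602565 and 17574281-17730268. In ptges-KO cells Sema3a was lower and the other two were higher.

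Sema3f, a ligand with high affinity for Nrp2, was at 3.17, 2.48 and 2.88 RPKM in scramble, at 5.69, 7.18 and 6.12 in ptgs1-KO, at 1.11, 0.690 and 0.850 in ptgs2-KO and at 2.19, 2.57 and 3.26 in ptges-KO samples. The ptgs1-KO samples stood above and the ptgs2-KO samples below all others, and the ptges-KO samples overlapped scramble. Its log2 fold change was 0.93 ± 0.14 in ptgs1-KO (adjusted p = 0.000854), -1.03 ± 0.14 in ptgs2-KO (adjusted p = 0.000466) and -0.07 ± 0.14 in ptges-KO cells (adjusted p = 0.748), and ptges-KO cells exceeded ptgs2-KO cells by 0.96 ± 0.14 (adjusted p = 0.000420). Without COX-2 this ligand was thus lower, and without COX-1 higher, than in control cells.

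The composition of the class changed with these movements. The summed class 3 level was 170 ± 8.01 RPKM in scramble, 173 ± 20.2 in ptgs1-KO, 125 ± 12.4 in ptgs2-KO and 105 ± 4.17 in ptges-KO cells. Sema3c made up 5.54 ± 0.23% of it in scramble, 3.51 ± 0.20% in ptgs1-KO, 10.9 ± 0.46% in ptgs2-KO and 19.6 ± 1.40% in ptges-KO cells. The share of Sema3a was 29.1 ± 1.43% in scramble and 18.2 ± 1.06% in ptges-KO cells, so that Sema3c and Sema3a were at nearly equal levels in ptges-KO cells.

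**Figure D4:**
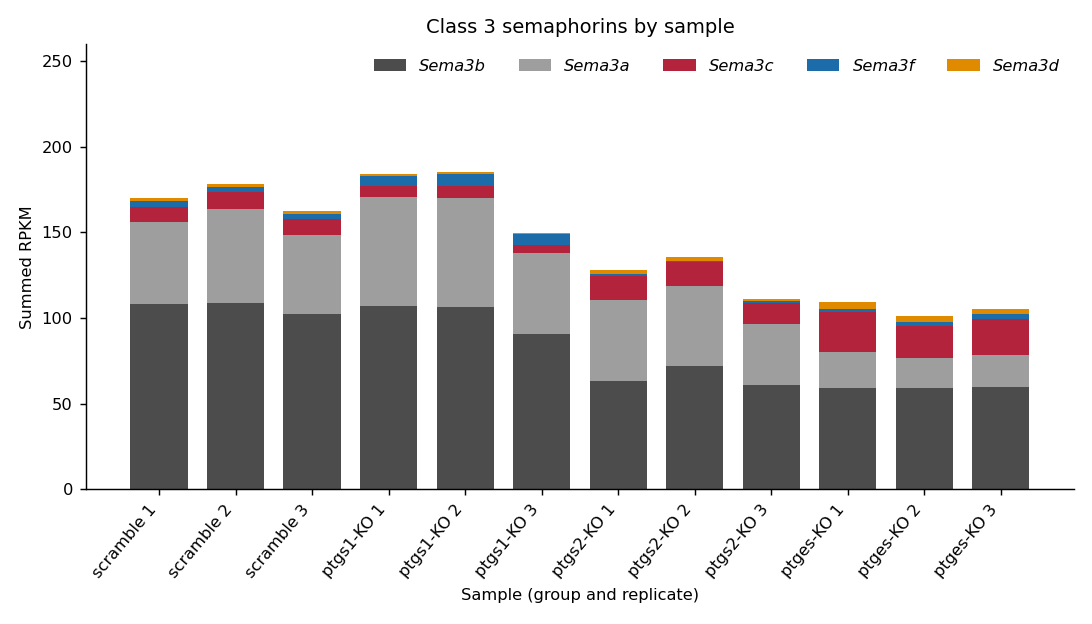
Summed level (RPKM, vertical axis from 0) of the 5 class 3 semaphorins that averaged 1 RPKM or more in each of the 12 samples, stacked by gene. The Sema3c part widens from scramble to ptgs2-KO and ptges-KO samples, while the total is lower in these groups.

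The neuropilins, co-receptors of these ligands and of vascular endothelial growth factor, differed from each other. Nrp2 was at 97.2 to 146 RPKM over the 12 samples and was called in none of the comparisons. Nrp1 was at 4.19, 4.61 and 4.55 RPKM in scramble and at 1.38, 1.57 and 1.57 in ptgs1-KO samples, with 4.69 to 5.86 RPKM in ptgs2-KO and 3.57 to 4.96 in ptges-KO samples. The ptgs1-KO samples lay below all others, and Nrp1 fell by 1.12 ± 0.12 on the log2 scale in this line (adjusted p = 6.54e-05). In the other lines it was not called (0.23 ± 0.12 in ptgs2-KO and -0.12 ± 0.12 in ptges-KO cells).

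Of the 9 plexins, which carry the intracellular GTPase-activating domain of the receptor complex, 6 had a mean of at least 1 RPKM, and all 6 were lower in ptges-KO cells. Under Tukey's test on RPKM, further adjusted over genes, this call ended for Plxna1, Plxna2, Plxna3 and Plxnb2 (adjusted p = 0.0725 to 0.213). It stayed for Plxna4 and Plxnd1. Plxna4, a receptor of Sema3a and Sema6b, changed most. It was at 4.0, 4.81 and 4.83 RPKM in scramble, at 3.32, 2.56 and 2.82 in ptgs1-KO, at 1.28, 0.90 and 0.720 in ptgs2-KO and at 0.680, 0.590 and 0.60 in ptges-KO samples. No 2 groups overlapped, and the ptges-KO mean was 13.7% of that of scramble. On the log2 scale Plxna4 changed by -1.77 ± 0.13 in ptges-KO (adjusted p = 1.07e-06), -1.50 ± 0.13 in ptgs2-KO (adjusted p = 9.47e-06) and -0.51 ± 0.13 in ptgs1-KO cells (adjusted p = 0.0293). The last call ended without ptgs1-KO sample 2 or 3 or scramble sample 2 or 3 (adjusted p = 0.0632 to 0.0989) and also with a pseudocount of 0.1 RPKM. An antisense transcript, Plxna4os3, overlaps exons of Plxna4 on the other strand, and whether the counting used strand is not given in the sources used here.

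The other plexins changed by less. Plxna1 and Plxna2, receptors for class 3 and class 6 semaphorins, were lower in ptges-KO cells against scramble (-0.65 ± 0.14, adjusted p = 0.00403, and -0.53 ± 0.13, adjusted p = 0.00951) and against ptgs2-KO cells (-0.66 ± 0.14, adjusted p = 0.00525, and -0.54 ± 0.13, adjusted p = 0.0124). Plxna1 was at 104, 119 and 125 RPKM in scramble and at 89.0, 66.8 and 66.1 in ptges-KO samples, without overlap. An antisense gene, Gm26811, overlaps exon sequence of Plxna1 on the other strand. The Plxna2 call against ptgs2-KO cells ended without ptges-KO sample 2 or 3 or ptgs2-KO sample 1 (adjusted p = 0.0527 to 0.0600). Plxna3 and Plxnd1, the receptor of Sema3e, were lower in both ptgs2-KO and ptges-KO cells.

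Plxnd1 was at 6.49, 6.79 and 7.01 RPKM in scramble, at 4.68, 4.06 and 3.30 in ptgs2-KO and at 5.25, 4.13 and 4.18 in ptges-KO samples, with changes of -0.64 ± 0.12 (adjusted p = 0.00449) and -0.50 ± 0.12 (adjusted p = 0.00867). Both knockouts lay below scramble and overlapped each other. Plxna3 changed by -0.43 ± 0.12 in ptgs2-KO (adjusted p = 0.0302) and by -0.55 ± 0.12 in ptges-KO cells (adjusted p = 0.00381), from a scramble mean of 19.0 RPKM, and the first of these ended without any 1 of the 3 scramble samples or ptgs2-KO sample 2 or 3 (adjusted p = 0.0562 to 0.117). Plxnb2, the receptor of Sema4c and the most abundant plexin, was at 477, 491 and 504 RPKM in scramble, at 376, 375 and 335 in ptgs2-KO and at 430, 304 and 272 in ptges-KO samples. It was lower in ptges-KO cells by -0.58 ± 0.14 (adjusted p = 0.0104) and was not called in ptgs2-KO cells, at -0.44 ± 0.14 (adjusted p = 0.0684), although those samples did not overlap scramble.

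The membrane-bound semaphorins were mostly lowest in ptges-KO cells as well. Sema6b, a ligand of Plxna4, was at 9.68, 9.72 and 9.51 RPKM in scramble, at 7.80, 6.10 and 5.23 in ptgs1-KO, at 9.17, 8.76 and 7.85 in ptgs2-KO and at 2.69, 2.20 and 2.12 in ptges-KO samples. The ptges-KO samples were below all others, at 24.2% of the scramble mean. Sema6b fell by 1.68 ± 0.13 in ptges-KO cells (adjusted p = 1.08e-06) and by 0.54 ± 0.13 in ptgs1-KO cells (adjusted p = 0.0161) on the log2 scale. The ptgs1-KO call ended without ptgs1-KO sample 2 or 3 or scramble sample 1 or 2 (adjusted p = 0.0522 to 0.0551).

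Sema7a, a lipid-anchored semaphorin that binds integrins and Plxnc1, was at 58.0, 57.1 and 54.1 RPKM in scramble, at 86.7, 81.2 and 68.9 in ptgs1-KO, at 50.9, 49.95 and 45.4 in ptgs2-KO and at 23.0, 21.6 and 24.3 in ptges-KO samples. The groups did not overlap, and ptgs1-KO and ptges-KO cells moved to opposite sides of scramble. Its log2 fold change was 0.47 ± 0.09 in ptgs1-KO (adjusted p = 0.00453), -0.21 ± 0.09 in ptgs2-KO (adjusted p = 0.156) and -1.26 ± 0.09 in ptges-KO cells (adjusted p = 6.50e-07). Against ptgs2-KO cells, ptges-KO cells were lower by -1.05 ± 0.09 (adjusted p = 3.85e-06).

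The class 4 members Sema4b and Sema4c were both lower in ptges-KO cells. Sema4b was at 103, 120 and 122 RPKM in scramble and at 68.9, 67.5 and 67.8 in ptges-KO samples (-0.74 ± 0.09, adjusted p = 0.000116), and it was also lower than in ptgs2-KO cells (-0.62 ± 0.09, adjusted p = 0.000561). In ptgs1-KO cells Sema4b changed by -0.41 ± 0.09 (adjusted p = 0.0142), a call that ended without ptgs1-KO sample 2 or scramble sample 2 or 3 (adjusted p = 0.0636 to 0.0652). Sema4c, a ligand of Plxnb2, was at 13.6, 14.0 and 15.6 RPKM in scramble and at 9.34, 9.31 and 8.45 in ptges-KO samples (-0.62 ± 0.10, adjusted p = 0.000592). All ptges-KO samples lay below the scramble samples for both genes. D430040D24Rik, on the opposite strand, overlaps exon sequence of Sema4c. Sema4c was also lower than in ptgs2-KO cells (-0.38 ± 0.10, adjusted p = 0.0179), which ended without ptges-KO sample 3 or ptgs2-KO sample 1 or 2 (adjusted p = 0.0524 to 0.0811).

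Sema6d, at 0.720, 1.09 and 0.820 RPKM in scramble, stood higher at 1.81, 1.75 and 1.29 in ptgs2-KO and at 1.42, 2.28 and 1.47 in ptgs1-KO samples, without overlap, but was called only in the contrast of ptges-KO with ptgs2-KO cells among the 4 comparisons (-0.70 ± 0.16, adjusted p = 0.00857). Sema5a, at group means of 74.1 to 88.7 RPKM, was called in none.

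Epha2 was by far the most abundant Eph receptor, and Efna1 was its most abundant ephrin-A ligand. Epha2 was at 605, 630 and 611 RPKM in scramble, at 491, 449 and 395 in ptgs1-KO, at 581, 555 and 488 in ptgs2-KO and at 524, 422 and 439 in ptges-KO samples. All knockout samples lay below the lowest scramble sample. It was called lower in ptgs1-KO (-0.47 ± 0.10, adjusted p = 0.0121) and ptges-KO cells (-0.42 ± 0.10, adjusted p = 0.0103) and not in ptgs2-KO cells (-0.19 ± 0.10, adjusted p = 0.270). The ptgs1-KO call ended without scramble sample 2 (adjusted p = 0.0522) and the ptges-KO call without ptges-KO sample 2 (adjusted p = 0.0541).

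Efna1 was at 37.2, 34.96 and 31.8 RPKM in scramble, at 28.2, 24.1 and 20.8 in ptgs1-KO and at 38.3, 41.5 and 39.9 in ptges-KO samples. It was lower in ptgs1-KO cells, whose samples lay below scramble (-0.50 ± 0.10, adjusted p = 0.00683), and was not called in ptges-KO cells (0.20 ± 0.10, adjusted p = 0.164), though it was higher there than in ptgs2-KO cells (0.40 ± 0.10, adjusted p = 0.0160). The latter call ended without ptges-KO sample 2 or 3 (adjusted p = 0.0505 to 0.0694). Receptor and leading ligand were thus both lower in ptgs1-KO cells, whereas in ptges-KO cells only the receptor was called.

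Efna4 was at 1.98, 3.51 and 3.07 RPKM in scramble, at 4.11, 4.71 and 4.18 in ptgs2-KO and at 5.19, 5.49 and 4.91 in ptges-KO samples, both above scramble. It rose by 0.71 ± 0.14 on the log2 scale in ptges-KO cells (adjusted p = 0.00290). Its call in ptgs2-KO cells (0.49 ± 0.14, adjusted p = 0.0416) ended without any 1 of 8 libraries, namely the 3 ptgs2-KO samples, scramble samples 1 and 3, ptges-KO samples 2 and 3 and ptgs1-KO sample 2 (adjusted p = 0.0529 to 0.153). Efna4 and its neighbour Efna3 each overlap an exon of another gene on the opposite strand. Efna5, at group means of 8.85 to 10.3 RPKM, was called in none of the comparisons.

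Ephb4, the receptor of Efnb2 in vessel formation, was at 24.7, 27.2 and 24.5 RPKM in scramble, at 53.1, 43.3 and 37.4 in ptgs1-KO, at 18.8, 19.5 and 18.9 in ptgs2-KO and at 19.9, 11.9 and 14.2 in ptges-KO samples. The ptgs1-KO samples lay above and those of both other knockouts below scramble. Ephb4 rose by 0.77 ± 0.16 in ptgs1-KO (adjusted p = 0.00671), fell by 0.72 ± 0.16 in ptges-KO (adjusted p = 0.00457) and was not called in ptgs2-KO cells (-0.40 ± 0.16, adjusted p = 0.119), on the log2 scale. Zan, a gene on the opposite strand, overlaps exons of Ephb4.

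Its ligand Efnb2 was at 87.9, 97.6 and 96.8 RPKM in scramble and was not called against scramble in any knockout, at -0.10 ± 0.12, 0.30 ± 0.12 and -0.13 ± 0.12 for the lines without COX-1, COX-2 and mPGES-1. It was lower without mPGES-1 than without COX-2 (-0.43 ± 0.12, adjusted p = 0.0218), at 100, 81.9 and 76.6 against 135, 111 and 104 RPKM, a call that ended without ptges-KO sample 2 or 3 or ptgs2-KO sample 1 (adjusted p = 0.0854 to 0.103). The receptor therefore changed in ptgs1-KO and ptges-KO cells without a called change of this ligand against scramble.

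Efnb3, from a scramble mean of 2.01 RPKM, was lower in ptges-KO cells (-0.44 ± 0.13, adjusted p = 0.0248, ended without scramble sample 1 or 3 or ptges-KO sample 2 or 3, adjusted p = 0.0633 to 0.0768). It was also lower than in ptgs2-KO cells (-0.42 ± 0.13, adjusted p = 0.0464), and that call ended without any 1 of 8 libraries, all but ptgs2-KO sample 3 and the 3 ptgs1-KO samples (adjusted p = 0.0568 to 0.200). Ephb6, a kinase-inactive receptor, was at 1.90, 1.76 and 1.58 RPKM in scramble and at 0.990, 1.03 and 0.780 in ptgs2-KO samples (-0.51 ± 0.12, adjusted p = 0.0135), and this call ended without ptgs2-KO sample 3 or scramble sample 1 (adjusted p = 0.0583 to 0.0597). The remaining members above 1 RPKM, Efnb1 (mean 6.97 RPKM), Epha7 (1.02) and Unc50 (20.2), were called in none of the 4 comparisons. Just below the level of 1 RPKM was Efna3, with a mean of 0.883.

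**Figure D5:**
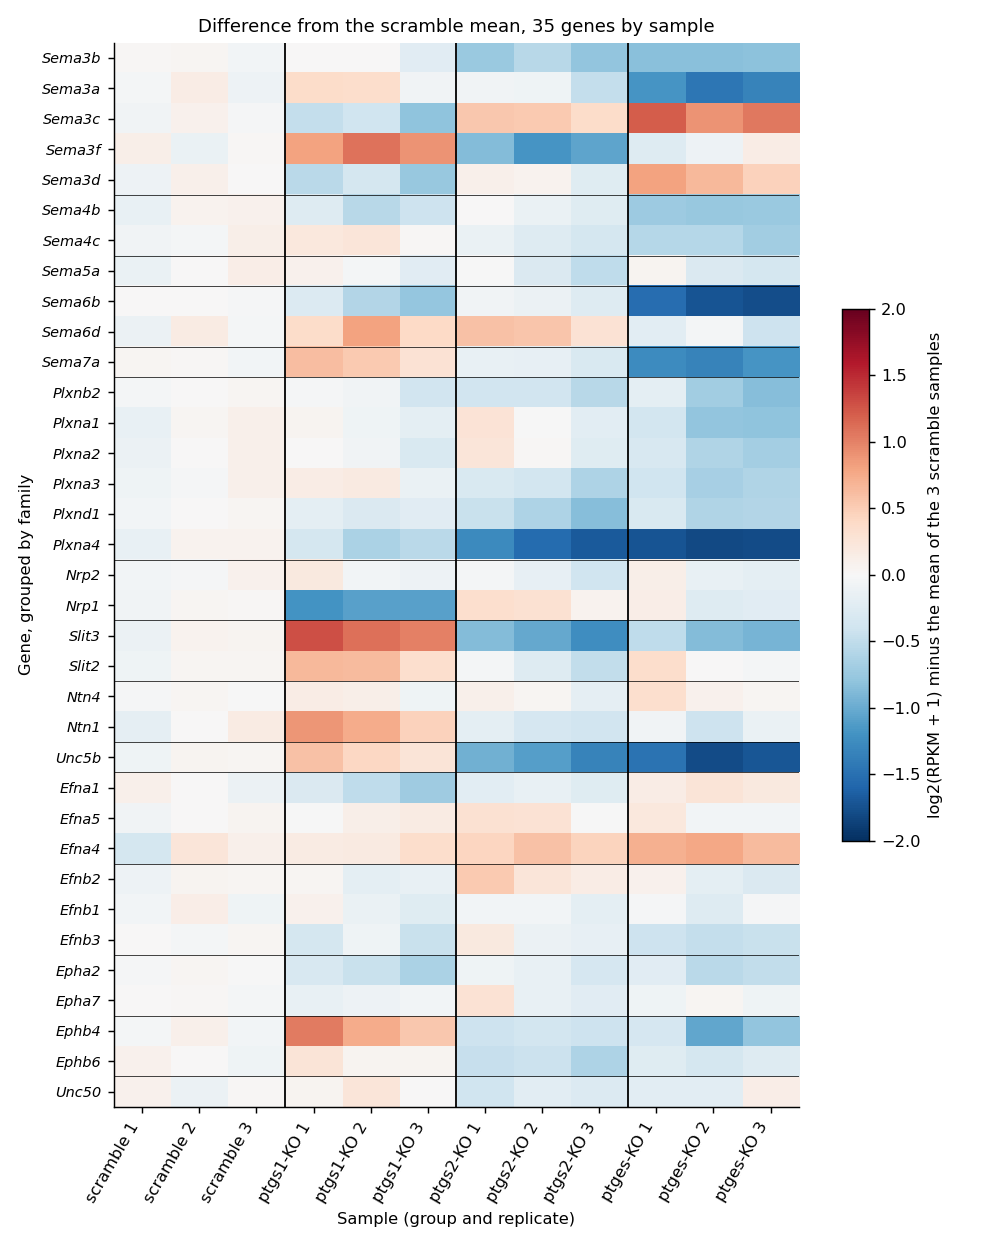
Difference of each sample from the mean of the 3 scramble samples (colour, log2(RPKM + 1), red higher and blue lower) for the 35 genes that averaged 1 RPKM or more (rows, by family) in the 12 samples (columns). Slit3, Sema3f, Ephb4 and Ntn1 are red in all 3 ptgs1-KO samples, and the plexin rows are blue in ptges-KO samples 2 and 3.

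Of the 36 members below 1 RPKM, 3 reached that level in a group mean. Ephb2, an EphB receptor, was at 1.42, 1.26 and 1.1 RPKM in scramble, at 0.16, 0.16 and 0.130 in ptgs1-KO, at 0.460, 0.340 and 0.180 in ptgs2-KO and at 0.10, 0.0700 and 0.050 in ptges-KO samples. All knockout samples lay below scramble. In a fit without the filter, over 18623 genes, Ephb2 was lower in all 3 knockouts, with log2 fold changes of -0.97 ± 0.07 in ptgs1-KO (adjusted p = 1.96e-05), -0.77 ± 0.07 in ptgs2-KO (adjusted p = 0.000164) and -1.07 ± 0.07 in ptges-KO cells (adjusted p = 9.41e-06). Scramble was the only line in which an EphB receptor other than Ephb4 and Ephb6 had a mean above 1 RPKM.

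Efna3, which lies between Efna1 and Efna4 on chromosome 3, was at 1.20, 0.940 and 1.34 RPKM in scramble, at 0.270, 0.110 and 0.110 in ptgs1-KO, at 0.820 to 0.860 in ptgs2-KO and at 1.42, 1.26 and 1.43 in ptges-KO samples. It was lower in ptgs1-KO cells in the unfiltered fit (-0.89 ± 0.08, adjusted p = 6.99e-05), as Efna1 was. Unc5a was at 0.230, 0.390 and 0.230 RPKM in scramble and higher in ptgs1-KO (1.15, 0.810 and 0.75) and ptgs2-KO samples (1.26, 0.630 and 0.680), with changes of 0.57 ± 0.13 (adjusted p = 0.0298) and 0.52 ± 0.13 (adjusted p = 0.0413).

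Sema6a was at 0.310 to 0.440 RPKM in scramble, at 0.0700 to 0.16 in ptgs2-KO and at 0.650 to 0.710 in ptges-KO samples, 3 ranges that did not overlap. In the unfiltered fit ptges-KO cells exceeded ptgs2-KO cells by 0.60 ± 0.05 (adjusted p = 1.65e-05). Among the 4 comparisons, Efna2 (group means 0.130 to 0.627 RPKM) was called only between ptges-KO and ptgs2-KO cells, lower in the former (-0.51 ± 0.14, adjusted p = 0.0449). Efna2 was also called higher in ptgs2-KO than in ptgs1-KO cells (0.49 ± 0.14, adjusted p = 0.0409). Sema6c (0.577 to 1.03 RPKM) was called in none of the 4 comparisons. Of the 36 low members, 32 could be fitted, and 6, 6 and 3 of these were called without COX-1, COX-2 and mPGES-1, respectively (18.8%, 18.8% and 9.38%, against 6.36%, 7.04% and 16.1% of all genes in that fit), while the other 4 were at 0 in all samples.

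Levels of ligands were set beside those of their receptors over 64 pairs listed from general knowledge of their binding. Both partners had a group mean of at least 1 RPKM in 27 pairs in scramble, 23 in ptgs1-KO, 21 in ptgs2-KO and 23 in ptges-KO cells, and 18 pairs were present in all 4 lines. The pairs of Plxna4 with Sema3a and Sema6b were present in scramble and ptgs1-KO cells and not in the other lines, where Plxna4 was under 1 RPKM. The pairs of Ephb2 with Efnb1, Efnb2 and Efna5 were present in scramble cells alone, and those of Sema3f with Nrp2 and Plxna3 were missing in ptgs2-KO cells. In 20 pairs the ligand alone reached 1 RPKM in every line, among them Slit2 and Slit3 with Robo1 and Robo2 and Sema7a with Plxnc1. These counts rest on mRNA levels in cultured cells, and neither protein nor binding was measured.

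Genes that act beside or downstream of the members were read from lists. These lists were chosen with earlier results of these data known, so their shares of called genes are descriptive. Of 13 other guidance genes that averaged 1 RPKM or more, 5 were called in ptgs1-KO (3 higher), 1 in ptgs2-KO (higher) and 7 in ptges-KO cells (all lower), that is 38.5%, 7.69% and 53.8%, beside 9.26%, 11.1% and 26.3% of all genes. The single ptgs2-KO call was Ptk7, a pseudokinase co-receptor, at a mean of 14.5 RPKM against 4.85 in scramble (log2 fold change 1.40), and in ptges-KO cells it lay below the ptgs2-KO level, at -1.90 on this scale. Slitrk5, a neuronal membrane protein, fell by 1.07 in ptges-KO cells, and Slitrk5 and the adhesion molecule Nrcam differed by -1.30 and -1.11 from their ptgs2-KO level in this line. Neo1, which binds netrins, was at group means of 91.3 to 103 RPKM and was called in none of the 4 comparisons. The ptges-KO count was 4 without ptges-KO sample 3, and the ptgs1-KO count was 3 without ptgs1-KO sample 1 or scramble sample 1.

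Of 44 cytoplasmic transducers of guidance signals that averaged 1 RPKM or more, 4 were called in ptgs1-KO (3 higher) and 4 in ptgs2-KO cells (all higher). In ptges-KO cells 15 were called (11 higher and 4 lower). These are 9.09%, 9.09% and 34.1%, beside 9.26%, 11.1% and 26.3% of all genes. The first count was thus near the share of all genes and the second below it, and the median log2 fold change of the list in ptges-KO cells was 0.06, beside -0.03 over all genes. Enah, an actin-binding protein downstream of Robo and Eph signals, rose by 1.1 in ptges-KO cells, from 9.14 to 20.9 RPKM. Mical2, of the family that couples plexins to actin, was at 27.9 RPKM in ptges-KO and at 59.9 in ptgs2-KO cells, a difference of -1.08. Without scramble sample 2 or ptgs1-KO sample 2 the ptgs1-KO count of this list was 1, and without scramble sample 3 it was 2.

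Samples of 1 line also differed from each other, and the members moved together in this. Of the 35 members, 29 were highest in ptgs2-KO sample 1 among the 3 ptgs2-KO samples, 27 in ptges-KO sample 1 and 23 in ptgs1-KO sample 1, compared with 47.6%, 55.2% and 54.9% of all genes tested. In percent of members these are 82.9%, 77.1% and 65.7%. Lowest of their line were 31 members in ptgs2-KO sample 3 (88.6%, against 50.9% of all genes) and 23 in scramble sample 1 (65.7%, against 31.3%). In ptgs1-KO sample 3, 25 members were lowest (71.4%), which was near the share of all genes (67.9%) and does not set the members apart. The median deviation from the group mean ranged over the 12 samples from -0.16 to 0.15 for the members and from -0.10 to 0.08 for all genes (log2). The members therefore share part of their spread between samples and are not independent of each other. The part of this shared spread in the results above was not tested.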

How the data were processed

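mRNA of 12 samples, 3 for each of 4 cell lines, was sequenced by the study (the labels name a directional kit and another kit). The authors deposited RPKM values per gene, which are reads scaled to transcript length and library depth. The genome build in the submitters' processing notes is mm10, the aligner and the counter are not given in the sources used here, and neither is whether strand was used in counting. RPKM is the unit named in the study's legends, whereas its methods speak of normalized counts.

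Log2(RPKM + 1) values of genes that averaged 1 RPKM or more were fitted with limma 3.58.1 in R 4.3.3 (lmFit, eBayes with a trend) over all 12 samples without covariates, and p values were adjusted by the Benjamini-Hochberg method over all 11282 genes. The script was tested on simulated data. Promoter windows came from RefSeq on GRCm38.p6. Full statistics were given for members called without overlap and with a log2 change of at least 0.5. The members, gene lists and pairs were chosen with earlier results of these data known. The samples of a line may be subclones or repeat cultures, and p values measure only the spread between these samples, which may be technical. The estimated depth rests on the steps between low values. Alternatives were another pseudocount, 2 other filters, 2 other scalings, a replicate block, a fit without the trend and fits of only 2 groups. Tukey's test on RPKM, with its p values adjusted further over genes, and leaving out each sample were also run.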

Additional observations from a re-analysis of the deposited data

Results flagged for a closer look

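The change against scramble differed in direction between knockouts for 7 genes. The difference itself is given as a direct contrast in limma (Benjamini-Hochberg adjusted p over all genes). These genes were picked because they were called on opposite sides of scramble and in this contrast. Its p values and the separation of samples therefore largely follow from that choice and are no further support. Sema3d and Sema3f also passed the filter through the groups in which they were higher. Without COX-1, Slit3, Unc5b, Sema7a, Ephb4 and Sema3f were higher than in scramble, and each was lower in at least 1 other knockout. The difference of ptges-KO from ptgs1-KO cells on the log2 scale was -1.90 for Slit3 (adjusted p = 1.40e-07), -2.08 for Unc5b (adjusted p = 2.68e-08), -1.73 for Sema7a (adjusted p = 1.30e-08) and -1.50 for Ephb4 (adjusted p = 1.15e-05). The difference of ptgs2-KO from ptgs1-KO cells was -2.18 for Slit3 (adjusted p = 4.84e-08), -1.55 for Unc5b (adjusted p = 6.74e-07) and -1.96 for Sema3f (adjusted p = 4.86e-07).

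Sema3c and Sema3d went the other way, being lower without COX-1. Sema3c differed by 1.62 between ptges-KO and ptgs1-KO (adjusted p = 3.91e-07) and by 1.04 between ptgs2-KO and ptgs1-KO cells (adjusted p = 3.23e-05). Sema3d differed by 1.19 between ptges-KO and ptgs1-KO cells (adjusted p = 5.60e-05). All samples of the lines compared were separate in each of these 10 contrasts, and the ptgs1-KO calls of Unc5b and Sema3d and the ptgs2-KO call of Sema3c against scramble ended when single libraries were left out.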

How the results depend on the processing

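No called result changed direction under any alternative run, whereas some changes near 0 that were not called did. Of 2884 values of single genes under alternatives, 2737 kept their side of the threshold, 118 lost the call (34 of them under Tukey's test on untransformed RPKM) and 29 gained it. Under Tukey's test with the further adjustment over genes, 4, 5 and 12 members were called without COX-1, COX-2 and mPGES-1. In that test 5 were called between ptges-KO and ptgs2-KO, and 0 members, against 7 in limma, had opposite called changes. Tukey's test called 1 and 3 of the other guidance genes in ptgs1-KO and ptges-KO, and 1, 2 and 8 transducers in the 3 knockouts in the same order, with 5 between the last 2. With genes averaging 10 RPKM or more, fewer genes were tested, and 9 and 5 members were called in ptgs1-KO and ptgs2-KO and 18 over the 4 groups. The same filter left 8 other guidance genes tested, without Ptk7, of which limma called 0 in ptgs2-KO (2 at an unadjusted p under 0.05, and Tukey's test called 1 of all 13), 2 in ptges-KO and 1 between these, and 1 transducer in ptgs1-KO and 7 between ptges-KO and ptgs2-KO. Median ratio scaling gave 2 other guidance genes in ptgs2-KO and 17 transducers between ptges-KO and ptgs2-KO, quantile scaling gave 7 transducers in ptgs2-KO, and a fit of the 2 groups gave 2 other guidance genes in ptgs2-KO. The cause was not tested.

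With 1 sample left out, member counts were 9 to 15 in ptgs1-KO (9 without scramble sample 2), 6 to 12 in ptgs2-KO (6 without scramble sample 1), 18 to 20 in ptges-KO, 10 to 17 between ptges-KO and ptgs2-KO and 24 to 29 over the 4 groups, with 5 to 7 in opposite directions. Other guidance genes numbered 3 to 6 in ptgs1-KO, 1 to 2 in ptgs2-KO and 4 to 8 in ptges-KO, and transducers in ptgs1-KO 1 to 5. With the replicate number as a block, 16, 12 and 20 members were called in the 3 knockouts, 15 between ptges-KO and ptgs2-KO and 27 over the 4 groups, with 2 other guidance genes in ptgs2-KO. Of 18 pairs of samples with the same replicate number, 5 had deviations correlated above 0.1, as had 12 of 36 pairs with different numbers. The highest correlation was 0.57 in the former and 0.32 in the latter. Of 12 samples, 5 correlated best with a sample of their own number. Among the members, however, sample 1 was most often the highest of its line in all 3 knockouts, and not in scramble. A pairing of the members by replicate number was not tested.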
